A study of Mus musculus with 34 samples.

Results

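The genotype difference in the early injury response is the difference between 2 differences, taken for each gene. The change from sham to day 1 after spinal cord injury in mice lacking trkB.T1 (knockout, KO) was set against the same change in wild-type (WT) mice, that is (KO day 1 minus KO sham) minus (WT day 1 minus WT sham). Of the 34 arrays of the series, 17 entered, and the difference was computed for 11993 genes. A negative value means that a gene rose less, or fell further, in KO cord, and a positive value the opposite.

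The series holds Affymetrix arrays of mouse spinal cord total RNA, 1 per sample. The 4 KO day 1 arrays came from KO mice 1 day after spinal cord injury, and the 4 KO sham arrays from KO mice whose operation left the cord intact. The 5 WT day 1 arrays and the 4 WT sham arrays came from wild-type mice treated in the same ways. Both KO groups share the trkB.T1 null genotype. The labels name no strain, sex, age, cord level or injury device, and do not state whether different arrays hold different animals, so the p-values cover only the spread between these samples. Genes typical of cord tissue were high on all 17 arrays. Mbp, a myelin protein, lay between 15.58 and 15.82 on the log2 scale, and Snap25, a synaptic protein of neurons, between 14.72 and 15.31.

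TrkB.T1 is a form of the trkB receptor that binds brain-derived neurotrophic factor but has no kinase domain, and it is the main form in astrocytes. Contusion or section of the cord is followed within hours by cytokine and interferon signals and by entry of blood leukocytes, and then by division of microglia, astrocytes, oligodendrocyte precursors and endothelial cells. In a dividing cell, genes for DNA replication are switched on before S phase and genes for chromosome separation and cytokinesis after it, and inhibitors such as p21 hold both back.

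All levels are log2 values of 1 probe set per gene, in which a step of 1 is a doubling. Values under 4 were not well above background. Folds that involve such arrays were therefore computed with every value under 4 raised to 4, and are written as at least. For a difference the number after ± is its standard error (SE), and for a level it is the SD. Called means an adjusted p under 0.05 in the limma fit over all 11993 genes.

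Libraries that stand apart come first. The library labelled KO sham replicate 2 goes against its label on Ntrk2, the gene of trkB. A probe set that reads 2.83 on the other 3 KO sham arrays reads 8.59 on it, against 9.58 to 9.84 on WT sham arrays. A second Ntrk2 probe set reads 9.46 on it, against 3.31 to 4.91 on the other KO sham arrays and 10.19 to 10.66 on WT sham arrays. The main results are therefore also given without this library. The 4 WT sham arrays were low in caudal Hox genes, which mark position along the cord. The mean of 8 such genes was 8.32 to 9.26 on KO day 1 arrays and 9.05 to 9.27 on KO sham arrays, against 8.33 to 9.08 on WT day 1 arrays and 7.45 to 8.04 on WT sham arrays. Skeletal muscle genes, 26 in all, averaged 6.33 to 9.3 on KO sham arrays and 3.66 to 7.68 on WT sham arrays. WT day 1 replicate 5 had the highest neutrophil gene mean, 8.06, against 5.95 to 6.86 on the other WT day 1 arrays.

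The genotype difference was called for 23 genes, 0.192% of those tested, with 21 negative (0.175%) and 2 positive (0.0167%). Of the 23 genes, 14 are known for work in cell division, and each of these 14 was negative. They are Cdca5, Ccne2, Cep55, Cdk1, Ect2, Hells, Mad2l1, Pbk, Top2a, Ccna2, Dbf4, Bub1, Pclaf and Melk, grouped by what they are known to do after the calls were seen. The other 9 were Slc39a8, Tek, Npl, Mamdc2, Dennd4c, Ugp2 and Slc40a1, which were negative, and Npas2 and Zfyve1, which were positive. At an unadjusted p under 0.05 there were 585 positive genes (4.88%) and 700 negative genes (5.84%). In the same fit 59% of genes were called between KO day 1 and KO sham and 65.4% between WT day 1 and WT sham.

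The count of calls depended on single libraries. It was 31 without KO sham replicate 2, of which 17 were among the 23, and Dbf4, Bub1, Pclaf, Melk, Ugp2 and Slc40a1 were then not called (adjusted p = 0.0563 to 0.0629). It was 71 without WT day 1 replicate 5, 14 without WT day 1 replicate 2, 13 without KO day 1 replicate 3, 14 without KO day 1 replicate 4, 13 without KO sham replicate 3 and 9 without KO sham replicate 4. All 23 genes kept their sign in each of these fits.

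**Figure D1:**
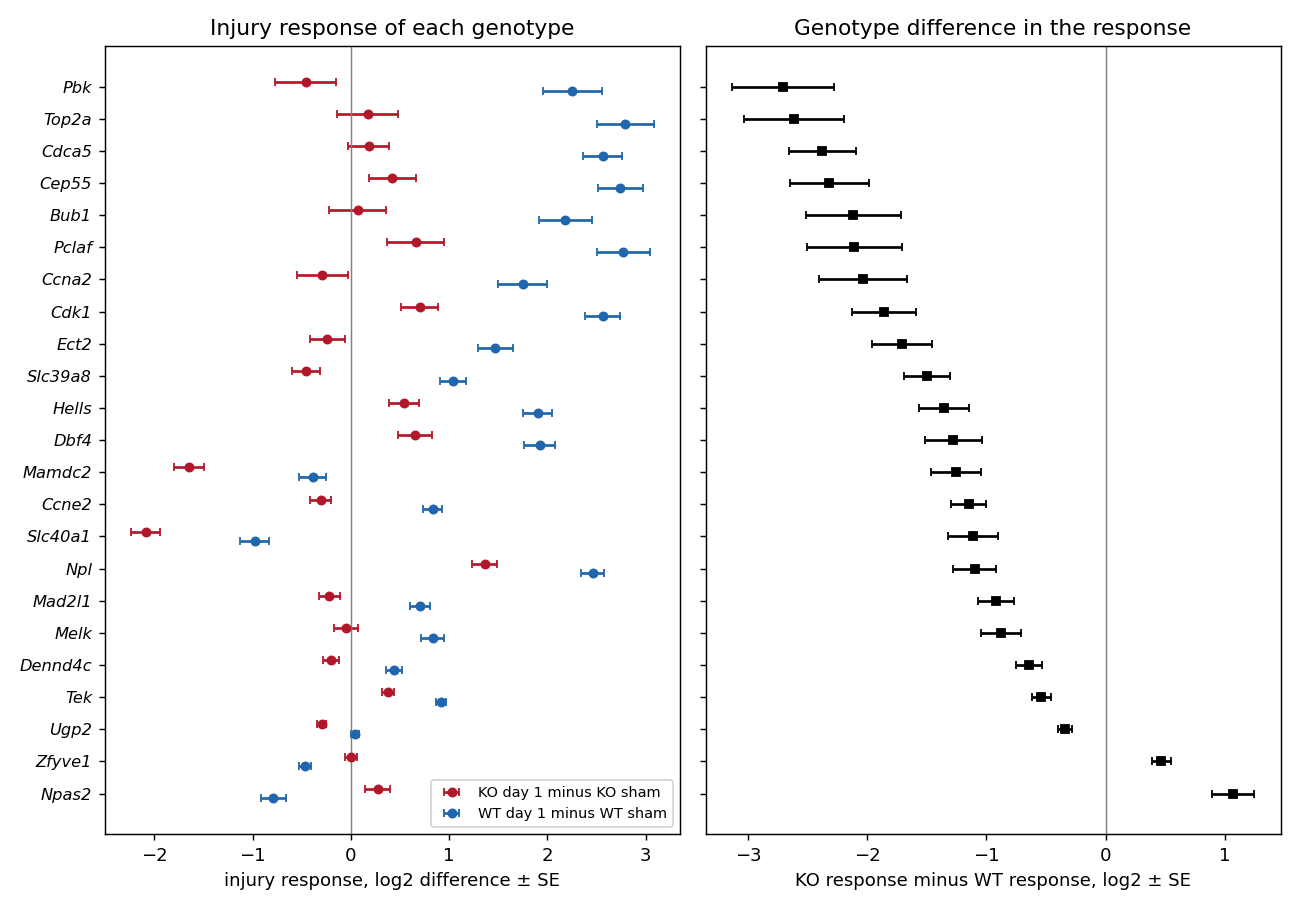
The 23 called genes, ordered by size. The left panel gives the log2 change from sham to day 1 in KO cord (red) and WT cord (blue), and the right panel the KO change minus the WT change, with bars for the SE; the cell division genes sit between -0.46 and 0.7 in KO cord and between 0.7 and 2.79 in WT cord.

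The letters of 3 well-known cell cycle elements were looked for in promoters of the division genes. Promoter sequences of 4 of these genes are shown, all 4 with CHR letters (TTTGAA), so they do not stand for all 14 genes. Each is the 250 bases before the RefSeq transcript start, on the gene's own strand, in build GRCm38.p6. Capitals mark the CHR letters TTTGAA, the CCAAT box letters CCAAT, and the E2F letters TTTCCCGC, TTTGGCGC, TTTCGCGC or TTTGCCGC, each on either strand.
Cdk1: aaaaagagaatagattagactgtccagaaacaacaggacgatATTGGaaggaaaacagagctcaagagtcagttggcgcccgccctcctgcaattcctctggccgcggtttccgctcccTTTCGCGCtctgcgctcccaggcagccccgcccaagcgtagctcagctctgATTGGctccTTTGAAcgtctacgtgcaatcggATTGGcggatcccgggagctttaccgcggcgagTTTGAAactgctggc
Top2a: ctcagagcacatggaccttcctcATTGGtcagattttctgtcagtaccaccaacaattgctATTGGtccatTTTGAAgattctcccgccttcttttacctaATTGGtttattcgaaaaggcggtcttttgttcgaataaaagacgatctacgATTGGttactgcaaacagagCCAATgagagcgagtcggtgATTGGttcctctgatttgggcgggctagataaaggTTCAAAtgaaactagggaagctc
Cdca5: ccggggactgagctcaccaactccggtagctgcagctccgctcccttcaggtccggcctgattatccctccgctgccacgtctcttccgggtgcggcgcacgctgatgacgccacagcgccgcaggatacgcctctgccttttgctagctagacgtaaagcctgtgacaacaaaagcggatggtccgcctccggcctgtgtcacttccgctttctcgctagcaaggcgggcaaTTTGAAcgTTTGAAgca
Ect2: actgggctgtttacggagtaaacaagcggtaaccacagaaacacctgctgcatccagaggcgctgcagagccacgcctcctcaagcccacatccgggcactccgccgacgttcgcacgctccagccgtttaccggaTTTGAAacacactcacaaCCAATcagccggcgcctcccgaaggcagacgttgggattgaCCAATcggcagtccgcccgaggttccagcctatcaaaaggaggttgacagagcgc
The locations are chr10:69352913-69353162 on the minus strand for Cdk1, chr11:99024190-99024439 on the minus strand for Top2a, chr19:6084847-6085096 on the plus strand for Cdca5 and chr3:27153879-27154128 on the minus strand for Ect2. RefSeq promoters were matched for 11 of the 14 genes, 13 promoters in all; Ccne2, Pbk and Ccna2 were not matched. CHR letters lay in 6 of the 13 promoters, those of Cdca5, Cdk1, Cep55, Ect2 and Top2a, against 16% of all 32851 promoters. CCAAT letters lay in 6 of the 13, against 33.8% of all, and E2F letters in 2, those of Cdk1 and Hells, against 1.86% of all. Such a match is a run of letters and not a shown site.

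The kinase and cyclins that drive the cycle rose in WT cord. In KO cord Ccne2 fell, Ccna2 was not called, and Cdk1 was called higher from values near background. Cdk1, the kinase of mitotic entry, had log2 levels of 4.5, 3.99, 4.04 and 3.91 on KO day 1 arrays and 3.09, 3.19, 3.71 and 3.66 on KO sham arrays. On WT day 1 arrays it had 6.55, 6.07, 6.14, 6.77 and 6, and on WT sham arrays 3.74, 4.07, 3.54 and 3.65. Every WT day 1 array lay above every other array, and KO day 1 arrays lay above KO sham arrays without overlap. The WT change was 2.56 ± 0.18 log2 (adjusted p = 1.66e-08), a rise of at least 4.89-fold. The KO change was 0.7 ± 0.19 (adjusted p = 0.00622), but 2 of the 4 KO day 1 values and all 4 KO sham values were under 4, and with those set to 4 it was 1.1-fold. The genotype difference was -1.86 ± 0.27 (adjusted p = 0.008).

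Ccna2, the cyclin A2 that pairs with Cdk2 in S phase and with Cdk1 later, had 3.86, 4.27, 3.89 and 2.92 on KO day 1 arrays and 3.75, 3.77, 4.28 and 4.28 on KO sham arrays. It had 5.96, 5.8, 5.68, 6.64 and 6.09 on WT day 1 arrays and 4.62, 4.46, 4.16 and 3.9 on WT sham arrays. The KO groups overlapped near the background limit, and the WT day 1 arrays stood above all others. The difference was -2.04 ± 0.37 (adjusted p = 0.0335), with a rise of at least 3.31-fold in WT cord. A second Ccna2 probe set gave -1.77 ± 0.31.

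Ccne2, the cyclin E2 that activates Cdk2 at the start of S phase, is well above background on all arrays. It had 6.09, 6.11, 6.06 and 6.19 on KO day 1 arrays and 6.35, 6.46, 6.52 and 6.37 on KO sham arrays, a fall without overlap (-0.31 ± 0.11, adjusted p = 0.02). It had 7.16, 7.27, 7.36, 7.54 and 7.08 on WT day 1 arrays and 6.57, 6.71, 6.27 and 6.24 on WT sham arrays, a rise without overlap (0.83 ± 0.1, adjusted p = 4.33e-06). The injury responses thus had opposite signs, and their difference was -1.15 ± 0.15 (adjusted p = 0.00409). Among the 14 division genes Ccne2 was the only one called lower at day 1 in KO cord.

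Genes of DNA replication and chromatin gave the same picture. Top2a, the topoisomerase that untangles replicated chromosomes, had 4.25, 4.61, 4.47 and 3.69 on KO day 1 arrays and 3.69, 3.69, 4.65 and 4.31 on KO sham arrays. It had 7.35, 6.99, 6.67, 7.76 and 6.91 on WT day 1 arrays and 4.42, 5.05, 3.69 and 4.24 on WT sham arrays. The lowest WT day 1 array was above the highest of the other 12 arrays. The difference was -2.62 ± 0.42 (adjusted p = 0.0153), with a rise of at least 6.55-fold in WT cord and no call in KO cord (0.17 ± 0.31, adjusted p = 0.653).

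Hells, a chromatin remodelling helicase, had 6.76, 6.81, 6.2 and 6.35 on KO day 1 arrays and 5.92, 6.16, 5.81 and 6.05 on KO sham arrays. It had 7.88, 7.57, 7.51, 7.86 and 7.18 on WT day 1 arrays and 5.73, 5.77, 5.63 and 5.66 on WT sham arrays. It rose in both genotypes, 1.46-fold in KO cord and 3.73-fold in WT cord, with a difference of -1.36 ± 0.21 (adjusted p = 0.0148). A second Hells probe set showed 0.03 ± 0.09. Dbf4, which activates the kinase that fires replication origins, rose 1.57-fold in KO cord and 3.8-fold in WT cord (-1.28 ± 0.24, adjusted p = 0.0464). Pclaf, a partner of the replication clamp, differed by -2.11 ± 0.4 (adjusted p = 0.0464).

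In the mitotic group, Cdca5, the sororin that keeps sister chromatids together, had 3.04, 3.17, 3.19 and 2.49 on KO day 1 arrays and 3.04, 3.09, 2.52 and 2.54 on KO sham arrays. It had 5.63, 5.3, 4.98, 5.45 and 4.78 on WT day 1 arrays and 2.55, 3.04, 2.59 and 2.48 on WT sham arrays. It was above background in WT day 1 cord alone among these groups. Its difference of -2.38 ± 0.28 had the smallest p of all genes (adjusted p = 0.00409), and became -1.23 with values under 4 set to 4 (adjusted p = 0.0082). A second Cdca5 probe set gave -0.18 ± 0.17.

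The spindle checkpoint was represented by Mad2l1 and Bub1, which delay chromosome separation until all chromosomes are attached. Mad2l1 had 6.42, 6.59, 6.69 and 6.45 on KO day 1 arrays and 6.87, 6.92, 6.79 and 6.44 on KO sham arrays. It had 7.45, 7.52, 7.57, 7.78 and 7.36 on WT day 1 arrays and 6.85, 6.83, 6.94 and 6.74 on WT sham arrays. Its KO groups overlapped and its WT groups did not, and the difference was -0.92 ± 0.15 (adjusted p = 0.0148). Bub1 had 2.42, 2.19, 2.64 and 2.17 on KO day 1 arrays and 2.19, 2.17, 2.17 and 2.63 on KO sham arrays, all under the background limit. On WT day 1 arrays it had 4.92, 4.65, 4.56, 5.35 and 3.44, and on WT sham arrays 2.63, 2.17, 2.17 and 2.64. Its difference of -2.12 ± 0.4 (adjusted p = 0.0464) was not called with values under 4 set to 4 (-0.7, adjusted p = 0.323).

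Cep55 and Ect2 act in cytokinesis, the last step of division. Cep55 had 3.59, 3.74, 3.58 and 3.19 on KO day 1 arrays and 3.16, 3.03, 3.17 and 3.04 on KO sham arrays. It had 6.01, 5.91, 5.76, 6.48 and 5.09 on WT day 1 arrays and 3.74, 3.03, 2.85 and 2.82 on WT sham arrays, and its difference was -2.32 ± 0.33 (adjusted p = 0.008). Ect2, the exchange factor that sets up the contractile ring, had 3.93, 3.75, 4.03 and 3.5 on KO day 1 arrays and 4.26, 4.06, 4.18 and 3.69 on KO sham arrays. It had 5.17, 5.24, 5.2, 5.95 and 4.87 on WT day 1 arrays and 3.86, 3.86, 3.69 and 3.86 on WT sham arrays, and its difference was -1.71 ± 0.25 (adjusted p = 0.0103). In both genes every WT day 1 array exceeded every other array. The kinases Pbk (-2.71 ± 0.43, adjusted p = 0.0148) and Melk (-0.88 ± 0.17, adjusted p = 0.0486) complete the group, and Melk stayed under 4 on all 17 arrays.

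The 14 division genes shared a layout that the interaction alone does not give. All 14 were called higher at day 1 in WT cord, Melk from values wholly under 4, where 29.3% of all genes were called higher. In KO cord 3 were called higher (Cdk1, Hells and Dbf4), 1 lower and 10 were not called, where 26.1% of all genes were called higher and 32.9% lower. At day 1 all 14 were called lower in KO than in WT cord, where 1.68% of all genes were called and 1.08% were called lower. At sham none of the 14 was called between genotypes by limma (1 at an unadjusted p under 0.05), where 0.0917% of all genes were called, all higher. These comparisons use the arrays that gave the calls, so the counts describe the 14 genes and add no independent evidence.

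**Figure D2:**
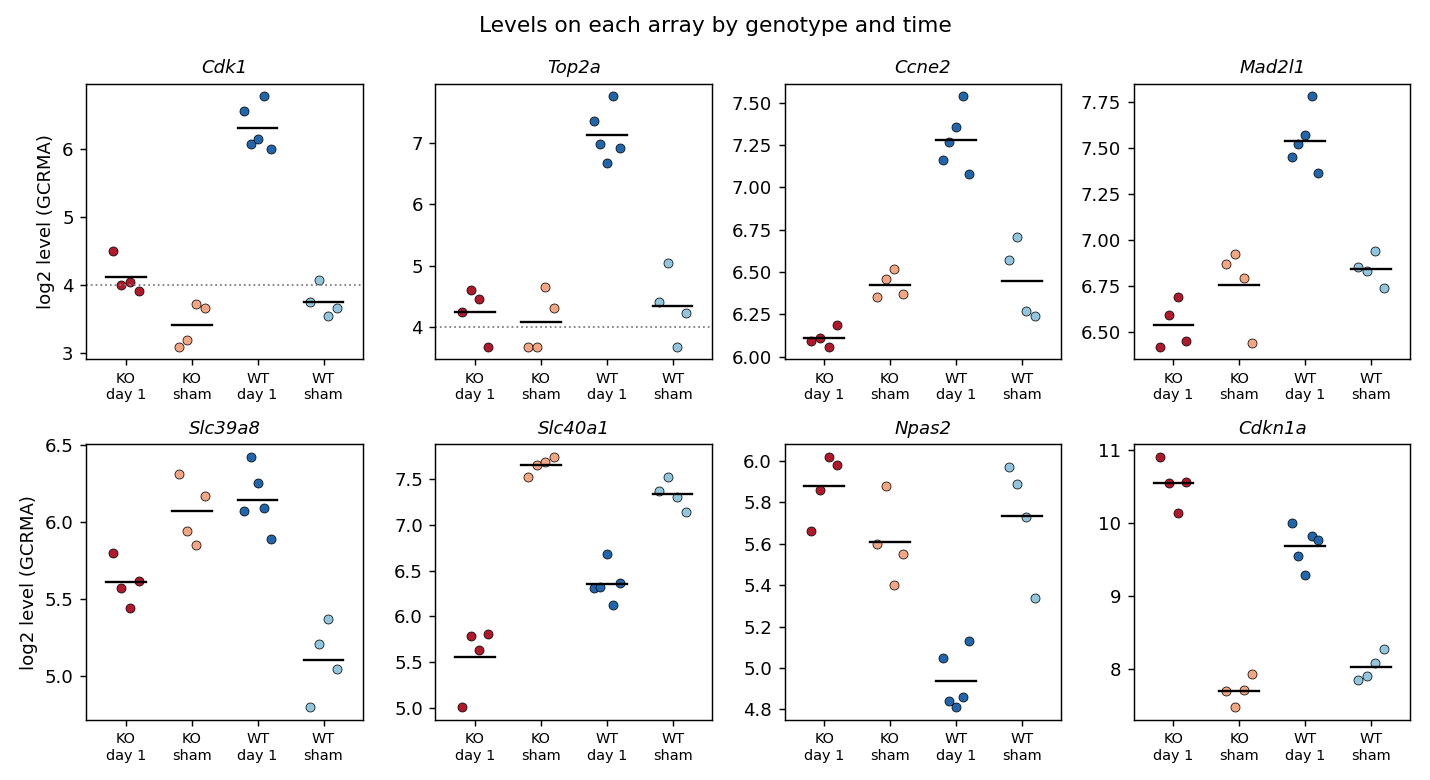
Log2 levels of 8 genes on each of the 17 arrays; points are arrays, bars are group means, and the dotted line at 4 marks the background limit. Cdk1, Top2a, Ccne2 and Mad2l1 are high on the 5 WT day 1 arrays alone, Slc39a8 is low on the WT sham arrays, and Npas2 is low on the WT day 1 arrays.

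Beyond the called genes, most members of the cell cycle lists had negative differences. Of 44 tested G1/S and DNA replication genes, 43 had a negative difference, with a median of -0.5 against 0.01 over all genes. At an unadjusted p under 0.05, 23 were negative and 0 positive, and only Ccne2 was called. The list was not silent in KO cord, where 24 members rose and 3 fell, where 26.1% of all genes rose and 32.9% fell. In WT cord 38 rose and 1 fell, where 29.3% of all genes rose and 36.1% fell. Rrm2, the ribonucleotide reductase subunit that makes deoxynucleotides, differed by -1.88 ± 0.45 (adjusted p = 0.126) and the DNA polymerase gene Pola1 by -1.08 ± 0.22 (adjusted p = 0.0606). Mcm7 of the replicative helicase rose in both, by 0.92 ± 0.09 in KO and 1.42 ± 0.08 in WT cord. Cyclin D1, Ccnd1, rose 2.93-fold in KO and 4.25-fold in WT cord, and Pcna, the replication clamp, 1.85-fold and 2.11-fold in the same order, with differences of -0.54 ± 0.16 and -0.18 ± 0.11 that were not called.

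Of 56 tested G2/M and mitosis genes, 33 were negative and 1 positive at an unadjusted p under 0.05, with a median of -0.58, and 8 were called, all negative. In KO cord 4 members rose and 4 fell, against 37 that rose and 1 that fell in WT cord. Over all genes 26.1% rose and 32.9% fell in KO cord, and 29.3% rose and 36.1% fell in WT cord. The mean of the list was 4.04 to 4.2 on KO day 1 arrays and 4 to 4.31 on KO sham arrays, against 4.85 to 5.39 on WT day 1 arrays and 4.08 to 4.39 on WT sham arrays. The G1/S mean was 6.42 to 6.67 on KO day 1 arrays and 5.79 to 6.03 on KO sham arrays, against 6.99 to 7.36 on WT day 1 arrays and 5.88 to 6.04 on WT sham arrays. KO day 1 cord thus overlapped its sham in the mitotic list and lay between sham and WT day 1 in the replication list. The mitotic means of KO cord lay near the background limit of 4. With values under 4 set to 4 the negative counts were 24 for G1/S (median -0.47) and 24 for G2/M (median -0.35). Fewer dividing cells and less RNA per cell cannot be told apart in tissue arrays. Without KO sham replicate 2 the negative counts were 23 and 33, and without WT day 1 replicate 5 they were 25 and 33.

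At the later times hardly any gene was called, so the lack of calls says nothing particular to the division genes. A fit of all 8 groups, which shares the sham arrays, called 17 of the 11993 genes (0.142%) for the genotype difference at day 1, 12 of them among the 23. It called 0 genes (0%) at day 3 and 1 gene (0.00834%) at day 7 by limma, none of them among the 23, of which 4 and 5 had an unadjusted p under 0.05. The division genes' genotype difference at day 3 lay between -0.24 and 0.73. Cdk1 averaged 9.09 ± 0.38 in KO cord (n = 5) and 8.81 ± 0.36 in WT cord (n = 4) at day 3, and 7.2 ± 0.11 in KO cord and 7.11 ± 0.35 in WT cord (SD, n = 4 each) at day 7. The genotype difference at day 3 minus that at day 1 was called, and positive, for 12 of the 14 genes, where 0.709% of all genes were called positive; this contrast holds the day 1 arrays that gave the calls.

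Interferon-response and glucocorticoid-responsive genes leaned to positive differences, and neither list held a called gene with all 17 arrays in the fit. Without WT day 1 replicate 5, 6 glucocorticoid-responsive genes and 1 interferon-response gene were called, all positive. That fit called 71 of all 11993 genes, 24 of them positive, the most of any fit that left 1 array out. Without KO sham replicate 2, 0 genes of either list were called. Cdkn1a, the p21 inhibitor of cyclin-dependent kinases and a glucocorticoid-responsive gene, came closest. It had 10.9, 10.55, 10.14 and 10.56 on KO day 1 arrays and 7.7, 7.48, 7.72 and 7.93 on KO sham arrays. It had 10, 9.55, 9.28, 9.82 and 9.76 on WT day 1 arrays and 7.85, 7.91, 8.09 and 8.27 on WT sham arrays. Every KO day 1 array was above every WT day 1 array, and the shams overlapped. Cdkn1a rose 7.11-fold in KO cord and 3.14-fold in WT cord, and the difference of 1.18 ± 0.23 just missed the threshold (adjusted p = 0.0508). A second Cdkn1a probe set gave 1.59 ± 0.32. Other inhibitors did not share this lean. Of 27 tested cell cycle inhibitors and p53 targets, Cdkn1a included, 3 were positive and 2 negative at an unadjusted p under 0.05, with a median of 0.03. Their mean averaged 8.26 on KO day 1 arrays and 8.25 on WT day 1 arrays.

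Of 21 glucocorticoid-responsive genes 11 were positive and 0 negative at an unadjusted p under 0.05, with a median of 0.57. Over all genes 4.88% were positive and 5.84% negative at that level. Directly at day 1, 9 of the 21 were called higher in KO than in WT cord, where 0.6% of all genes were called higher. Plin4, a lipid droplet protein, had 7.18, 7.79, 7.31 and 7.62 on KO day 1 arrays and 3.76, 3.5, 3.9 and 4.09 on KO sham arrays. It had 5.1, 5.33, 4.54, 5.04 and 6.88 on WT day 1 arrays and 4.44, 3.76, 3.05 and 3.93 on WT sham arrays. WT day 1 replicate 5 was the nearest to the KO day 1 arrays. The rise was at least 10.9-fold in KO and at least 2.41-fold in WT cord, with a difference of 2.08 ± 0.53 (adjusted p = 0.158). Tsc22d3, the glucocorticoid-induced leucine zipper gene, was not called in KO cord (-0.06 ± 0.1) and fell in WT cord (-0.58 ± 0.09), and Klf9 rose in KO cord (0.29 ± 0.1) and fell in WT cord (-0.28 ± 0.1).

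Of 41 interferon-response genes, 16 were positive and 0 negative at an unadjusted p under 0.05, with a median of 0.79. Over all genes 4.88% were positive and 5.84% negative at that level. In KO cord 40 rose and 0 fell, against 34 that rose and 1 that fell in WT cord. Over all genes 26.1% rose and 32.9% fell in KO cord, and 29.3% rose and 36.1% fell in WT cord. Ifit1, an antiviral RNA-binding protein, had 9.38, 6.36, 7.34 and 8.37 on KO day 1 arrays and 4.18, 3.05, 3.73 and 3.52 on KO sham arrays. It had 6.5, 6.43, 5.41, 7.2 and 5.96 on WT day 1 arrays and 2.64, 3.12, 6 and 4.86 on WT sham arrays. The WT groups overlapped because WT sham replicate 3 was at 6, and the KO groups did not. Its difference was 2.1 ± 0.96 (adjusted p = 0.451). Usp18 (2.14 ± 0.8), Rsad2 (1.71 ± 0.68), Ifit3 (1.67 ± 0.6), Cxcl10 (1.66 ± 0.62), Stat2 (1.15 ± 0.28), Igtp (1.11 ± 0.38) and Gbp3 (0.94 ± 0.32) were likewise not called. Cmpk2, a nucleotide kinase induced by interferon, was not called in KO cord (0.04 ± 0.14) and fell in WT cord (-0.88 ± 0.14), with a difference of 0.92 ± 0.2 (adjusted p = 0.0831).

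The interferon median changed sign with the Hox mean as a covariate, at -0.29, with 1 member positive and 3 negative. Without KO sham replicate 2 the median was 0.65, with 11 positive and 0 negative. Under the same covariate the medians were -0.68 for the G1/S list, -0.71 for the G2/M list and 0.53 for the glucocorticoid list, so these kept their signs. The glucocorticoid count under it was 5 positive and 0 negative, 1 of them called, and Cdkn1a was at 0.63 (adjusted p = 0.212). Over all 11993 genes, 1582 were then positive and 1285 negative at an unadjusted p under 0.05. With the Hox covariate 556 genes were called in all, 311 positive and 245 negative, and 12 of the 14 division genes were among them. With the skeletal muscle mean as a covariate 5 of the 14 were called, and the G2/M list held 2 calls, against 8 without it.

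The promoter of Ifit1 is shown for the letters of the interferon-stimulated response element, written here as GAAA, any 2 bases and GAAA again on either strand and set in capitals.
Ifit1: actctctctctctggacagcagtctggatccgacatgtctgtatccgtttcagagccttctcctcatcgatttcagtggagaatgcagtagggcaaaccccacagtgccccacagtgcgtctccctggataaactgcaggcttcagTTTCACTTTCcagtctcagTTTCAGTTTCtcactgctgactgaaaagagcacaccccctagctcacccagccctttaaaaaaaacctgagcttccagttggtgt
It lies at chr19:34640639-34640888 on the plus strand in build GRCm38.p6. Among the 16 positive interferon genes 13 were matched to 17 RefSeq promoters, and 8 of these held such letters, against 2.98% of all 32851 promoters. None of the 13 promoters of the division genes held them.

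**Figure D3:**
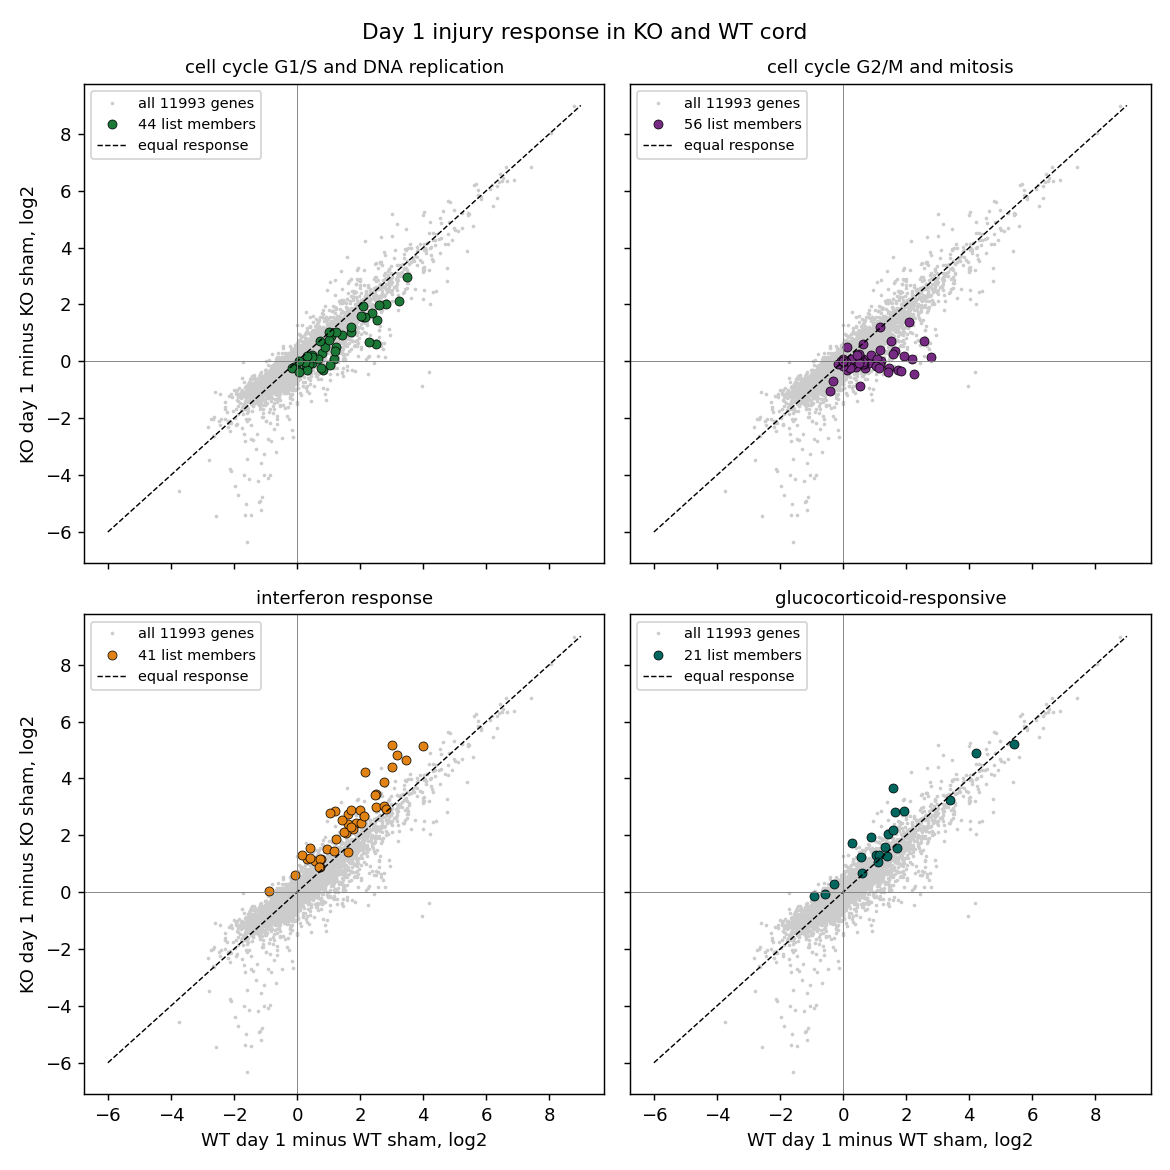
Log2 change from sham to day 1 in KO cord (vertical) against WT cord (horizontal), for 4 gene lists (coloured) over all 11993 genes (grey), with the line of equal response dashed. Most cell cycle members lie below the line (43 of 44 G1/S and 49 of 56 G2/M genes), the G2/M members mostly near 0 in KO cord, and interferon and glucocorticoid members mostly above it.

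Slc39a8 and Tek were the 2 genes among the 23 that were also called between the genotypes at sham. Slc39a8, the zinc and manganese importer ZIP8, had 5.8, 5.57, 5.44 and 5.62 on KO day 1 arrays and 6.31, 5.94, 5.85 and 6.17 on KO sham arrays. It had 6.07, 6.42, 6.25, 6.09 and 5.89 on WT day 1 arrays and 4.8, 5.21, 5.37 and 5.05 on WT sham arrays. It fell in KO cord (-0.46 ± 0.14, adjusted p = 0.00911) and rose in WT cord (1.04 ± 0.13, adjusted p = 5.88e-06), and the difference was -1.5 ± 0.19 (adjusted p = 0.00409). KO sham was above WT sham without overlap (0.96, adjusted p = 0.0106), and at day 1 the KO arrays were lower (-0.54, adjusted p = 0.0502).

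Tek, the angiopoietin receptor Tie2 of endothelium, had 7.22, 7.22, 7.17 and 7.2 on KO day 1 arrays and 6.87, 6.8, 6.76 and 6.87 on KO sham arrays. It had 7.32, 7.49, 7.42, 7.51 and 7.29 on WT day 1 arrays and 6.53, 6.5, 6.52 and 6.4 on WT sham arrays. It rose in both genotypes, 1.3-fold in KO and 1.89-fold in WT cord, and the difference was -0.54 ± 0.08 (adjusted p = 0.008), with KO sham above WT sham (0.33, adjusted p = 0.0314). At day 1 the KO arrays lay below the WT arrays without overlap (-0.21, adjusted p = 0.0622). Of 27 endothelial genes 11 were negative and 0 positive at an unadjusted p under 0.05, with a median of -0.48, and Tek alone was called. Over all genes 5.84% were negative and 4.88% positive at that level. The list mean was 7.09 to 7.52 on KO day 1 arrays and 6.51 to 6.86 on KO sham arrays, against 7.31 to 7.56 on WT day 1 arrays and 6.23 to 6.38 on WT sham arrays. The shams did not overlap and the day 1 groups did. Kdr, the main VEGF receptor (-0.86 ± 0.23), Abcb1a, a drug efflux pump of the blood-brain barrier (-0.77 ± 0.21), and Vcam1, an adhesion molecule (-0.47 ± 0.11), were not called.

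Caudal Hox genes were called between the genotypes at sham, and Schwann cell and muscle genes were not. Hoxd10 had 4.23, 7.3, 8.36 and 8.06 on KO day 1 arrays and 6.73, 8.19, 8.33 and 8.1 on KO sham arrays. It had 6.8, 4.15, 8.32, 4.54 and 7.63 on WT day 1 arrays and 2.34, 2.43, 2.17 and 2.34 on WT sham arrays, all under background. Its difference was -4.81 ± 1.27 (adjusted p = 0.173), and those of Hoxa10 (-2.5 ± 0.51, adjusted p = 0.0606), Hoxc10 (-1.46 ± 0.33) and Hoxd9 (-1.02 ± 0.3) were not called either. At sham Hoxa10, Hoxc10, Hoxd9 and Hoxd10 were called higher in KO cord. Of 13 Schwann cell and nerve root genes 5 were negative and 0 positive at an unadjusted p under 0.05, with Pmp2 at -4.57 ± 1.36 and Egr2 at -2.19 ± 0.62. Without KO sham replicate 2 both were called, Pmp2 at -5.66 (adjusted p = 0.0392) and Egr2 at -2.81 (adjusted p = 0.0069). The mean of that list was 7.91 to 8.75 on KO day 1 arrays and 6.98 to 8.61 on KO sham arrays, against 8.09 to 8.89 on WT day 1 arrays and 7.01 to 7.3 on WT sham arrays. Of 26 skeletal muscle genes 22 fell in KO cord and 2 in WT cord, where 32.9% and 36.1% of all genes fell. None was called for the genotype difference, whose median was -2.46. At sham 18 of the 26 were higher in KO cord at an unadjusted p under 0.05 (median 2.17), against 523 of all 11993 genes. Smpx (-3.19 ± 1.14), Mybpc2 (-2.95 ± 1.33) and Myom2 (-2.63 ± 1.1) were among the largest negative values, though only Mybpc2 is on the list. On WT day 1 replicate 2 they read 4.08, 5.25 and 5.1, and on every other day 1 array they were under 4. With the muscle mean as a covariate 8 genes were called for the genotype difference, all of them among the 23.

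**Figure D4:**
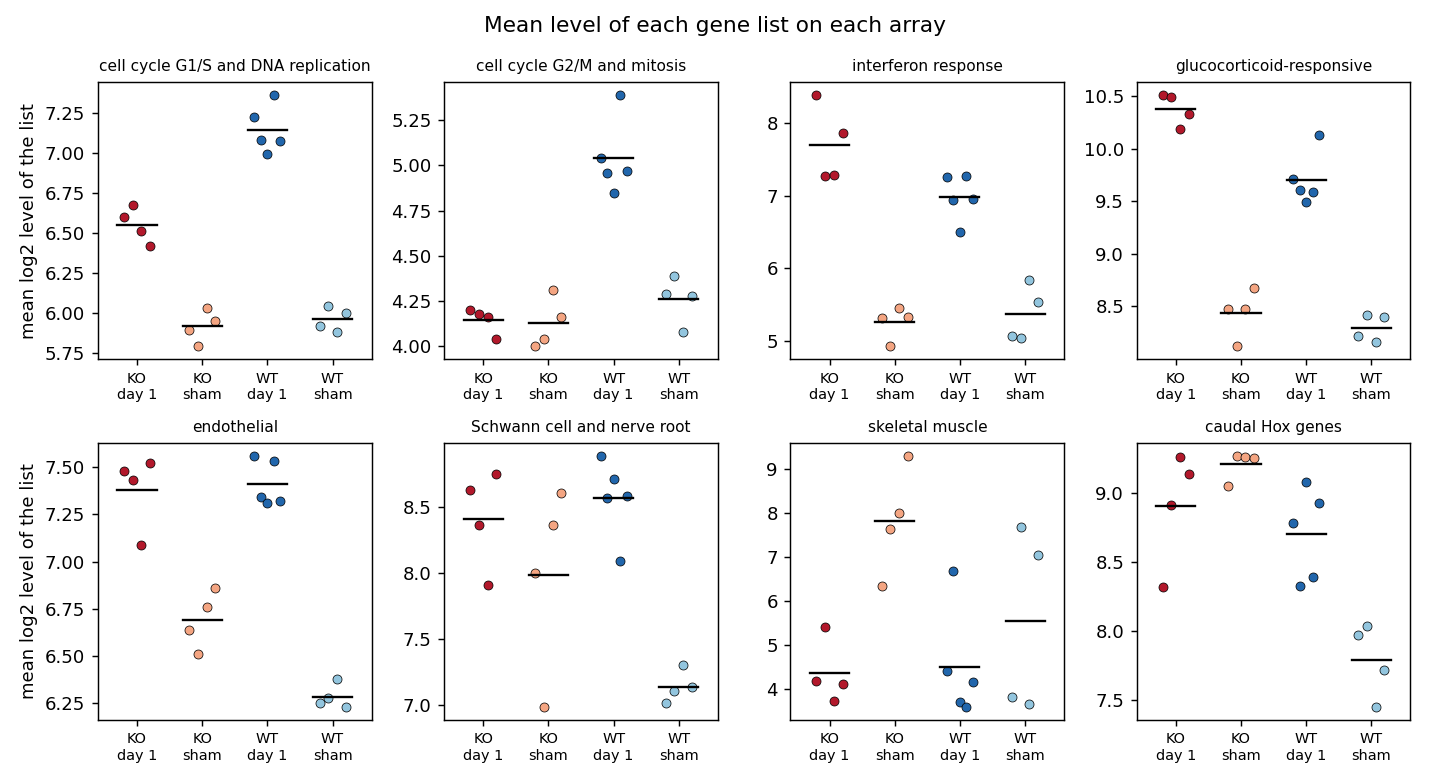
Mean log2 level of 8 gene lists on each of the 17 arrays, with bars for group means. The cell cycle means separate KO from WT at day 1 and not at sham; the endothelial and caudal Hox means separate them at sham and not at day 1.

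Slc40a1 and Npl were 2 further negative calls. Slc40a1, the iron exporter ferroportin, had 5.01, 5.79, 5.63 and 5.81 on KO day 1 arrays and 7.52, 7.65, 7.68 and 7.74 on KO sham arrays. It had 6.31, 6.32, 6.68, 6.12 and 6.36 on WT day 1 arrays and 7.37, 7.52, 7.3 and 7.14 on WT sham arrays. It fell in both, to 0.236 of the KO sham level and to 0.508 of the WT sham level, and the difference was -1.11 ± 0.21 (adjusted p = 0.0486). A second Slc40a1 probe set, under 4 on all 17 arrays, gave -0.14 ± 0.23. Slc40a1 was called in 3 of the 17 fits that left 1 array out. It was the only called gene of 20 on the iron and heme list (median -0.03), with Blvrb at -0.51 ± 0.19 and Aco1 at -0.29 ± 0.1. Npl, which splits sialic acid, had 7.77, 7.85, 7.69 and 7.62 on KO day 1 arrays and 6.32, 6.47, 6.27 and 6.43 on KO sham arrays. It had 8.63, 8.49, 8.45, 8.4 and 8.12 on WT day 1 arrays and 6.19, 6.25, 5.74 and 5.67 on WT sham arrays. It rose 2.56-fold in KO and 5.49-fold in WT cord, with a difference of -1.1 ± 0.18 (adjusted p = 0.0148).

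Of the remaining negative genes, Ugp2, which makes UDP-glucose, fell in KO cord (-0.3 ± 0.05) and was not called in WT cord (0.04 ± 0.04), a difference of -0.34 ± 0.06 (adjusted p = 0.0464). Dennd4c, an activator of a Rab protein, fell in KO cord (-0.2 ± 0.08) and rose in WT cord (0.44 ± 0.08), a difference of -0.64 ± 0.11 (adjusted p = 0.0255). Its KO sham arrays lay above its WT sham arrays without overlap (0.39 ± 0.08, not called). Its day 1 groups overlapped (-0.26 ± 0.08, not called). Mamdc2 fell in both, to at most 0.514 of the sham level in KO and at most 0.776 in WT cord (-1.26 ± 0.21, adjusted p = 0.0177), and was not called with values under 4 set to 4 (adjusted p = 0.13).

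The 2 positive calls were Npas2 and Zfyve1. Npas2, a partner of Arntl in the circadian clock, had 5.66, 5.86, 6.02 and 5.98 on KO day 1 arrays and 5.6, 5.88, 5.4 and 5.55 on KO sham arrays. It had 5.05, 4.84, 4.81, 4.86 and 5.13 on WT day 1 arrays and 5.97, 5.89, 5.73 and 5.34 on WT sham arrays. The WT day 1 arrays were below all others, and Npas2 fell to 0.577 of the WT sham level while the KO change of 0.27 ± 0.13 was not called. The difference was 1.07 ± 0.18 (adjusted p = 0.0255). Arntl itself had 0.63 ± 0.13 (adjusted p = 0.0684), and the clock genes Dbp (-0.83 ± 0.21) and Per2 (-0.42 ± 0.17) had negative values. Of 16 clock genes 2 were positive and 4 negative at an unadjusted p under 0.05. Zfyve1, a protein of the endoplasmic reticulum, was not called in KO cord (0 ± 0.06) and fell in WT cord (-0.47 ± 0.06), a difference of 0.47 ± 0.08 (adjusted p = 0.0335). Its KO sham arrays lay below its WT sham arrays without overlap (-0.31 ± 0.06, not called). Its day 1 groups overlapped (0.15 ± 0.06, not called).

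Of the genes that just missed the threshold in the positive direction, Galnt16 (0.61 ± 0.12), Kctd13 (0.5 ± 0.1), Rnf144a (0.55 ± 0.11), Pnoc (0.78 ± 0.16) and Ercc1 (0.52 ± 0.12) had adjusted p = 0.0624 to 0.0983. Slc10a6, a transporter on the reactive astrocyte list, rose at least 5.84-fold in KO and at least 1.87-fold in WT cord (1.72 ± 0.45, adjusted p = 0.173).

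Glial, immune and neuronal lists held no called gene in the fit of 17 arrays without covariates. Homeostatic microglia genes had 5 of 20 negative and 0 positive at an unadjusted p under 0.05 (median -0.15), with Gpr34, a microglial receptor, falling in KO cord (-0.98 ± 0.16) and not called in WT cord (-0.02 ± 0.15). Activated macrophage genes had 4 of 34 negative (median -0.05), with Ms4a7 at -1.28 ± 0.43 and Mrc1 at -1.78 ± 0.69. Reactive astrocyte genes had 4 positive and 3 negative of 35 (median -0.04), with Nes, the intermediate filament of progenitors, at -1.53 ± 0.43. Myelin, homeostatic astrocyte, cholesterol, ribosome and oxidative phosphorylation genes had medians between -0.03 and 0.08. Neuron genes had 3 of 35 positive (median 0.23). With the Hox mean as a covariate 19 neuron genes were positive at an unadjusted p under 0.05, 9 of them called (median 0.61). Under it 15 reactive astrocyte genes were negative, 3 of them called (median -0.67). That fit made 1582 of all 11993 genes positive, 311 of them called, and 1285 negative, 245 of them called. Bdnf, the trkB ligand, rose in both genotypes (0.88 ± 0.17 in KO, 0.7 ± 0.16 in WT), with a difference of 0.19 ± 0.23. The probe set used for Ntrk2 fell in both (-0.56 ± 0.15 in KO, -0.97 ± 0.14 in WT), with a difference of 0.41 ± 0.2 (adjusted p = 0.49). Ntrk2 probe sets above the filter differed between KO and WT at day 1 by -6.31, -6.11, -0.13, 0.56, 0.61 and 0.61 log2, the last being the one used. By limma over all 20925 probe sets the 2 lowest were called lower in KO cord (adjusted p = 0.00124 and 0.00104). Those at 0.56, 0.61 and 0.61 were called higher in the same fit (adjusted p = 0.0339, 0.0415 and 0.0459). At sham the 2 lowest differed by -5.45 and -4.82 with KO sham replicate 2 in the fit (adjusted p = 0.0429 and 0.047).

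Other probe sets of the same genes were checked where they were above the filter. Of the 23 called genes 7 had 10 further probe sets, of which 9 had the same sign, 6 had an unadjusted p under 0.05 and 1 was called over all 20925 probe sets.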

How the data were processed

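Log2 values of the probe sets of all 34 arrays were used as deposited, and the submitters' processing notes name GCRMA, with no version. GCRMA corrects background by probe GC content, normalizes arrays to a common distribution and summarises probes, so low values are compressed towards a floor. For each gene the probe set of highest mean level was taken, and the gene was kept if above log2 4 on at least 4 arrays, which left 11993 genes. Groups came from the labels. A linear model with 1 mean for each of the 4 groups was fitted to 17 arrays with lmFit and eBayes of limma 3.58.1 (R 4.3.3). Benjamini-Hochberg adjustment ran over all genes, and the threshold was 0.05. The fit was tested on simulated data. The number of arrays limits the precision.

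Named genes were all called genes, the 10 smallest p in the direction with few calls, the 8 largest differences each way, up to 4 members of each list, and a few fixed genes. The members and lists were chosen with earlier results of these data known. Alternatives changed the arrays fitted, the filter, the probe set rule, the scaling, the variance model, covariates, the replicate block and each array in turn. Promoters came from RefSeq GRCm38.p6.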

Additional observations from a re-analysis of the deposited data

Results flagged for a closer look

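The 2 genotypes' injury responses differed by the test of the difference itself for 23 genes. The log2 differences were -2.71 for Pbk, -2.62 for Top2a, -2.38 for Cdca5, -2.32 for Cep55, -2.12 for Bub1, -2.11 for Pclaf, -2.04 for Ccna2, -1.86 for Cdk1, -1.71 for Ect2, -1.36 for Hells, -1.28 for Dbf4, -1.15 for Ccne2, -0.92 for Mad2l1 and -0.88 for Melk among division genes. They were -1.5 for Slc39a8, -1.26 for Mamdc2, -1.11 for Slc40a1, -1.1 for Npl, -0.64 for Dennd4c, -0.54 for Tek, -0.34 for Ugp2, 0.47 for Zfyve1 and 1.07 for Npas2 among the others.

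Single arrays stood far from the rest of their group in 10 of 236 groups tested (4.24%), and chance alone marks about 1 in 20 groups. Ect2 was 3.69 on WT sham replicate 3, against 3.86 on the other WT sham arrays. Bub1 was 2.63 on KO sham replicate 4, against 2.17 to 2.19 on the others, all under background. Hoxd10 was 6.73 on KO sham replicate 1, against 8.1 to 8.33, and the mean of 8 caudal Hox genes was 9.05 there, against 9.25 to 9.27. The homeostatic microglia mean was 7.08 on WT sham replicate 2, against 7.31 to 7.33. The skeletal muscle mean was 6.68 on WT day 1 replicate 2, against 3.58 to 4.41. Among Ntrk2 probe sets, one was 8.59 on KO sham replicate 2, against 2.83 on the others. Another was 9.82 on KO day 1 replicate 1, against 10.18 to 10.22. One more was 3.36 on KO day 1 replicate 1, against 3.73 to 3.76, and 3.9 on WT day 1 replicate 5, against 3.73 to 3.77.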

How the results depend on the processing

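The 23 called genes kept their sign under every alternative that tested them, except that Melk was 0 when values under log2 4 were set to 4, and Cdca5, Cep55, Ect2 and Slc39a8 were called under each. Against 23 genotype-difference calls there were 15 with no filter on low values, 51 with array weights, 556 with the Hox mean and 8 with the skeletal muscle mean as a covariate, and 9 to 71 when 1 array was left out. The share of positive calls was 8.7% in the reported fit, against 55.9% with the Hox covariate. The replicate block gave 37 calls, 27% of them positive, and 20 were among the 23. Same-numbered arrays of different groups deviated together in 8 of 24 pairs (r above 0.1, range -0.27 to 0.37). Their median r was 0.015, against -0.015 for pairs with different numbers. Between KO day 1 and WT day 1 the same-numbered pairs had r of 0.25, 0.31, 0.35 and -0.13. These values do not settle whether replicate numbers pair the samples, and the cause of the change in calls was not tested. Calls for KO against WT at day 1 numbered 202, against 103 with all 34 arrays in the fit and 97 to 393 with 1 array left out. For KO against WT at sham they numbered 11, against 17 with values under log2 4 set to 4, 4 with quantile normalization, 39 with array weights, 1 with either covariate, 7 with the replicate block and 1 to 22 with 1 array left out. With the Hox covariate the difference turned to -0.4 for Cxcl10, -0.91 for Ifit1, -0.29 for Ifit3 and Usp18, 0.31 for Hoxd10 and 0.06 for Hoxd9, the last 2 genes being part of that covariate. With the mean of all probe sets Ntrk2 turned to -0.2. The causes of these changes were not tested. Counts for gene lists without single libraries or with covariates were added after the data were seen. Signal near background limits Bub1, Melk and Mamdc2, which were not called with values under 4 set to 4. Slc40a1, Dbf4 and Pclaf have no value under 4 and kept their differences there, at adjusted p = 0.0533 to 0.0566.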
